A study of Mus musculus with 2 samples.

Results

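The genes described here encode 10 RNA-binding proteins whose levels are known to differ between dividing neural progenitors and neurons: Ptbp1, Ptbp2, Rbfox1, Rbfox2, Rbfox3, Srrm4, Elavl3, Elavl4, Msi1 and Msi2. They were taken by name from 31253 genes, and all 10 were in the table, with 101 transcript rows between them. The first of 2 libraries came from mouse neural retinal progenitor cells (mNRPCs) of strain C57BL/6, grown for 24 passages. By the culture method described, they start from neural retina of mice 8 to 10 weeks old and are kept on Matrigel in N2/B27 medium with bFGF, a fibroblast growth factor, and CHIR99021, which blocks the kinase GSK3. The second came from C57BL/6 retina tissue, and the age of the mice behind it is not given in the sources used here. There was 1 library per group, so no difference below has a replicate check and no p-value was calculated. Whether the culture is 1 clone, or the tissue a pool of animals, is not stated.

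These proteins bind pre-mRNA or mRNA and set which exons are kept and which mRNAs are stable or translated. In progenitors and most other cells, the polypyrimidine tract binding protein Ptbp1 holds many neuronal exons out of mRNA. Neurons replace it by its paralog Ptbp2, and add Rbfox, Elavl and Srrm4 proteins that promote neuronal exons. Ptbp1 also acts on its own paralog: it causes a short exon of Ptbp2 to be skipped, which shifts the reading frame and sends the mRNA to nonsense-mediated decay. The Musashi proteins Msi1 and Msi2 bind mRNA in neural stem cells and are also known in photoreceptors.

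The exon of Ptbp2 on which this control acts is shown with its counterpart in Ptbp1, since the transcripts of Ptbp2 differed more between the libraries than their sum. Both are exon 10 of 14 in the curated transcript and 34 bases long, so skipping either changes the frame. The sequences come from GENCODE M21 transcripts (GRCm38) and are read 5′ to 3′ on the transcript strand. Capitals mark the exon and lower case the 15 bases of the neighbouring exons on each side.
Ptbp1, chr10:79862014-79862047, plus strand: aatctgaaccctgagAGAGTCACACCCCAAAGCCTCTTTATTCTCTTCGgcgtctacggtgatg
Ptbp2, chr3:119724612-119724645, minus strand: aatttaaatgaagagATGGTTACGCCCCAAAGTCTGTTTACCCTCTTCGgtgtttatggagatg
The exons are identical at 26 of 34 positions (76.5%). In GENCODE, 3 Ptbp2 transcripts carry the exon and 3 skip it, of which 2 are classed as nonsense-mediated decay and 1 as retained intron.

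Levels are in FPKM, that is, fragments scaled by transcript length and by the number of fragments mapped, summed over the transcript rows of a gene. The log2 ratio is that of (mNRPC FPKM + 1) over (retina FPKM + 1), which understates the change of low genes. A gene is called higher or lower in mNRPCs when this ratio is at least 2-fold. Intervals are 95% Poisson intervals from estimated fragment numbers and cover counting error only. Rows of unknown length were given the mean length of the other rows of the gene, weighted by FPKM. Of the 10 genes, 2 were higher and 8 lower in the mNRPC library. Among 13780 genes of at least 1 FPKM in a library, 24.5% were higher and 30.0% lower. All 10 reached that minimum. The summed FPKM of the mNRPC library was 1.43 times that of the retina library. With both rescaled to a common sum, 1 of the 10 genes was higher and 8 were lower. Of all genes compared, 2552 were then higher and 5733 lower. As deposited, the median log2 ratio of the 10 genes was −3.30. It was −5.74 without the added 1 and with low genes raised to the level of 3 fragments. The median of all genes compared was −0.12.

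**Figure D1:**
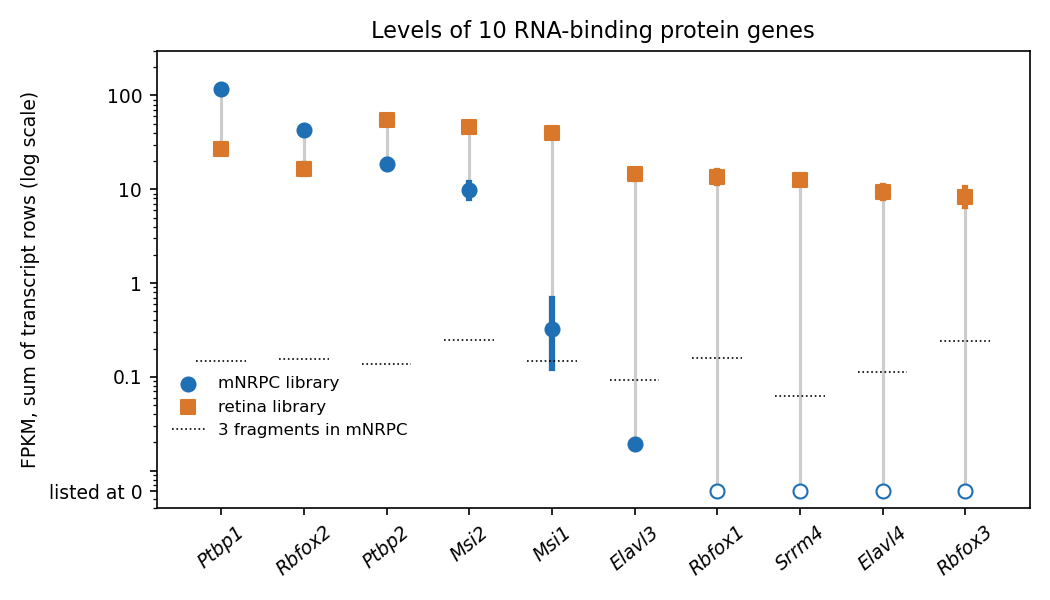
FPKM of each gene on a log axis in the mNRPC library (circles) and the retina library (squares), with 95% counting intervals as thick bars, drawn for mNRPC only above 0.1 FPKM; dotted lines mark 3 fragments in the mNRPC library and open circles genes listed at 0. Ptbp1 and Rbfox2 are higher in mNRPCs, and Rbfox1, Srrm4, Elavl4 and Rbfox3 are listed at 0 there.

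The labels were checked against marker genes. Of 7 progenitor and proliferation markers, 6 were higher in the mNRPC library and 0 lower, while all 10 rod, 5 cone and 8 neuronal markers were lower. The neuronal markers summed to 25.4 FPKM in mNRPCs and 1781 in retina, with Stmn2 listed at 0 in mNRPCs. All 6 ganglion, 5 bipolar and 4 Müller glia markers were lower, as were the 2 horizontal cell markers compared. Of 5 amacrine markers, 3 were lower and 1 was higher, Tfap2a with 31.3 FPKM in mNRPCs against 7.08 in retina. Of 3 mesenchymal markers, 2 were higher in mNRPCs and 1 after rescaling both libraries to a common sum. The collagen gene Col3a1 had 450 FPKM in mNRPCs against 0.311 in retina, while Col1a1 had 1.35 against 0.552. In these bulk libraries, fewer cells of a type and less RNA per cell cannot be told apart. Neuronal markers moved with the neuronal RNA-binding genes below, and their part in the result was not tested. Estimated depth was 6.47e+06 fragments for mNRPCs and 5.07e+06 for retina.

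Ptbp1 (chr10:79854427-79864771) was at 118 FPKM in mNRPCs (interval 114 to 123) and at 26.7 FPKM in retina (24.2 to 29.4). It was 4.43-fold higher in mNRPCs, with a log2 ratio of 2.11. Its level there was the highest of the 10 genes and stood at percentile 93.5 of the genes detected there, against 77.4 in retina. Ptbp1 remained at least 2-fold higher under each scaling of the libraries that was tried.

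Ptbp2 (chr3:119718742-119784466) was at 18.4 FPKM in mNRPCs (interval 16.7 to 20.3) and at 54.5 FPKM in retina (51.1 to 58.1), 2.96-fold lower in mNRPCs. This sum hid opposite changes of its transcripts. The curated coding transcript NM_019550.2, which contains the 34-base exon shown above, gave 1.12 FPKM in mNRPCs against 49.1 in retina, 43.8-fold lower. Its mNRPC value corresponds to an estimated 24.4 fragments. The predicted non-coding rows went the other way. XR_375550.1 had 10.6 FPKM in mNRPCs against 0.0977 in retina, and XR_375549.1 had 4.88 against 0.427. Together the non-coding rows made up 83.9% of Ptbp2 in mNRPCs and 0.96% in retina. The 3 coding rows summed to 2.96 FPKM in mNRPCs, 18.2-fold below their sum in retina. The reference used here holds no structure or length for the non-coding rows, so whether they lack the 34-base exon was not tested, and no fragment number can be given for them. The interval of the Ptbp2 sum assumes that they are as long as the curated row.

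**Figure D2:**
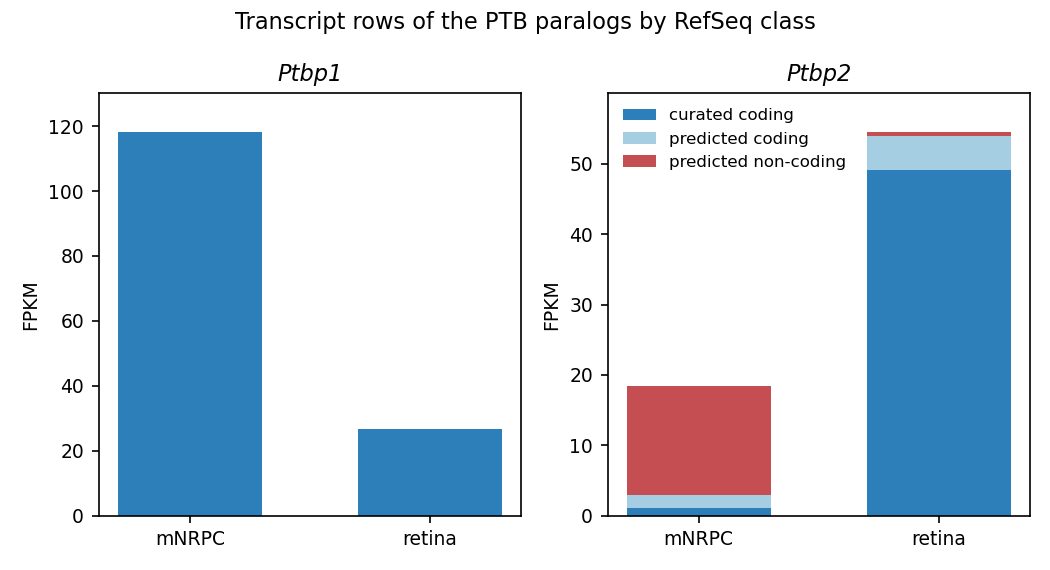
FPKM of Ptbp1 and Ptbp2 (bars from 0, 1 library each) split by the RefSeq class of the transcript rows. All Ptbp1 is on curated coding rows, while 83.9% of Ptbp2 in mNRPCs is on predicted non-coding rows and 90.1% of Ptbp2 in retina on the curated coding row.

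Ratios of genes within a library do not depend on how the libraries are scaled. Ptbp1 exceeded Ptbp2 by 6.41-fold in mNRPCs, while in retina the ratio was 0.490. Against the coding Ptbp2 rows only, the ratios were 39.9 and 0.495. Ptbp3, the paralog found mainly in blood and other non-neural cells, had 25.4 FPKM in mNRPCs against 5.95 in retina, a log2 ratio of 1.93. Of the summed level of Ptbp1, Ptbp2 and Ptbp3, Ptbp1 held 72.9% in mNRPCs and 30.6% in retina.

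Ptbp1 itself has an alternative exon of 78 bases, which encodes part of the linker between RNA-binding domains. The exon was carried by rows that held 64.1% of Ptbp1 in mNRPCs and 53.2% in retina. The row with the exon, NM_001077363.2, had 75.8 FPKM in mNRPCs against 14.2 in retina, and the main row without it, NM_008956.3, had 37.2 against 11.6. Both rows were thus higher in mNRPCs.

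The Rbfox genes encode splicing regulators with nearly the same RNA-binding domain. Rbfox2 (chr15:77078990-77307004), the member most widely used outside neurons, gave 42.9 FPKM in mNRPCs against 16.4 in retina, a log2 ratio of 1.33 with a counting SE of 0.10. It was above the 2-fold threshold as deposited, but at 0.84 after both libraries were rescaled to a common sum and at 0.71 when rod and cone genes were left out of that sum. Rbfox1 (chr16:5885355-7411526), a neuronal and muscle member, was listed at 0 in mNRPCs, against 13.6 FPKM in retina. Of the retina level of Rbfox1, 99.5% was on predicted rows. Rbfox3 (chr11:118489762-118911597), which encodes the neuronal marker NeuN, was listed at 0 in mNRPCs on all 10 of its rows, against 8.27 FPKM in retina. Rbfox2 therefore made up the whole detected Rbfox level in mNRPCs and 42.9% of it in retina. The paper describes mNRPCs as positive for NeuN protein by immunofluorescence. That staining and the Rbfox3 RNA value in mNRPCs differ, and the reason was not tested.

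Rbfox2 transcripts also differed in their exons. A 40-base exon is typical of brain and a 43-base exon of muscle, and each curated row used here holds 1 of them or neither. They are shown because the libraries differed in which was used, with capitals for the exon and 15 flanking bases on each side.
Rbfox2 40-base exon, chr15:77094451-77094490, minus strand: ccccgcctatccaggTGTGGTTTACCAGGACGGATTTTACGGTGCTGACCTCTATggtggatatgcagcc
Rbfox2 43-base exon, chr15:77091812-77091854, minus strand: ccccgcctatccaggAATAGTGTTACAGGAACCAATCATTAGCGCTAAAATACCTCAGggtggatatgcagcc
Curated rows, whose exons are known, held 78.2% of Rbfox2 in mNRPCs and 87.6% in retina. Of that level, rows with the 40-base exon made up 68.8% in mNRPCs and 99.3% in retina. Rows with the 43-base exon made up 20.2% (6.77 FPKM) in mNRPCs and 0.587% (0.0844 FPKM) in retina. In retina these 2 rows had an estimated 0.573 and 0.116 fragments, each under 3 fragments. Rows with neither exon made up the rest. Outside this curated level, the predicted row XM_006521593.2 held 17.1% of Rbfox2 in mNRPCs and 0.510% in retina. Which of these exons it holds is not known. Further exons of 93 and 54 bases differed less, with shares of 86.4% and 93.4% in mNRPCs and of 85.5% and 85.6% in retina. For a 147-base exon, a row with a 144-base form of it was left out. The remaining rows of known state held 72.7% of Rbfox2 in mNRPCs and 87.5% in retina. Of that level, the 147-base exon was on 92.9% in mNRPCs and 85.6% in retina.

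Srrm4 (chr5:116439275-116591817), a splicing activator that adds microexons to neuronal mRNA, was listed at 0 in mNRPCs, against 12.4 FPKM in retina (interval 11.3 to 13.6). Because its transcript is long, its limit of 3 fragments in mNRPCs lies at 0.0621 FPKM, the lowest among the 10 genes. Its paralog Srrm3, which acts on microexons in neurons as well, was also listed at 0 in mNRPCs, against 32.1 FPKM in retina. The general splicing coactivators Srrm1 and Srrm2 were present in both libraries. Their mNRPC levels were 14.8 and 45.2 FPKM, with log2 ratios of −1.20 and −1.13.

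The neuronal Elavl proteins stabilise mRNA and act on splicing. Elavl3 (chr9:22015005-22052023) had 0.0194 FPKM in mNRPCs, or 0.631 fragments by estimate, against 14.5 FPKM in retina. Set against the limit of 3 fragments, this is at least 156-fold lower. Of the retina level of Elavl3, 82.9% was on predicted rows, and with curated rows only its log2 ratio was −1.79 instead of −3.92. Elavl4 (chr4:110203722-110351909) was listed at 0 in mNRPCs on all 15 of its rows, against 9.43 FPKM in retina. Elavl2, the other neuronal paralog, had 1.77 FPKM in mNRPCs against 3.65 in retina. Of the scalings tried, its log2 ratio of −0.75 passed the threshold with the libraries rescaled to a common sum, with or without rod and cone genes. Elavl1, the paralog of all tissues, had 16.9 FPKM in mNRPCs against 14.3 in retina, and the sign of its log2 ratio of 0.23 turned after rescaling to a common sum (−0.26), with −0.39 when rod and cone genes were left out. Elavl1 held 90.4% of the Elavl1 to Elavl4 level in mNRPCs and 34.2% in retina.

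A value of 0 in this table need not mean that the RNA is absent. Rcor1, a corepressor gene in wide use, had 9.75e-05 FPKM in mNRPCs and was listed at 0 in retina. The cause of these Rcor1 values was not tested. Of 7417 genes with at least the retina level of Rbfox3, 283 (3.82%) were listed at 0 in mNRPCs. Rbfox1, Rbfox3, Srrm4 and Elavl4 are 4 of these. The mNRPC library held rod transcripts at a median of 0.0418% of their retina level, from 0.00702% (Gngt1) to 0.641% (Rom1). At the median ratio, each of the 10 genes would have between 0.0434 and 0.496 fragments in mNRPCs. At the Rom1 ratio these numbers would be higher, and they were not calculated. The source of the rod reads was not tested.

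The Musashi genes went against a grouping as progenitor genes. Msi1 (chr5:115429599-115455698) had 0.322 FPKM in mNRPCs (interval 0.124 to 0.680), or 6.53 fragments by estimate, against 39.6 FPKM in retina (36.5 to 42.8). Its level was 123-fold lower in mNRPCs. Msi2 (chr11:88339382-88718513) had 9.76 FPKM in mNRPCs (8.07 to 11.7) against 46.0 in retina (41.7 to 50.5), 4.71-fold lower. Msi1 was thus 3.20% of the Musashi level in mNRPCs and 46.3% in retina. Much of the retina level was on predicted transcripts. The predicted row XM_006530181.2 held 94.6% of Msi1 in retina, and the curated row NM_008629.1 had 1.63 FPKM there, 10.8-fold above its mNRPC level of an estimated 3.05 fragments. With curated rows only, the log2 ratio of Msi1 was −1.19 instead of −4.94. The main curated row of Msi2, NM_054043.3, had 5.61 FPKM in mNRPCs against 18.5 in retina.

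The order of the 10 genes differed between the libraries. In mNRPCs it was Ptbp1, Rbfox2, Ptbp2, Msi2 and then Msi1, with no overlap between the intervals of these neighbours. The place of Ptbp2 rests on its non-coding rows, since its coding rows alone (2.96 FPKM) were below Msi2 (9.76 FPKM). The intervals of Msi1 and Elavl3 overlapped, as did those of Elavl3 and the genes listed at 0. In retina the order was Ptbp2, Msi2, Msi1, Ptbp1, Rbfox2, Elavl3, Rbfox1, Srrm4, Elavl4 and Rbfox3. There the intervals of Msi2 and Msi1, of each neighbouring pair from Rbfox2 to Srrm4, and of Elavl4 and Rbfox3 overlapped. An overlap does not show that the levels are equal. The range was 8.27 to 54.5 FPKM in retina and 0 to 118 FPKM in mNRPCs.

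Exons that these proteins are known to control gave a second view. Among the 10 genes and 10 further genes with known switches, curated transcripts differed by 23 alternative exons. For 13 coding exons of 6 genes, rows with a known state held at least 60% of the gene in both libraries. This limit was set after the values were seen. Numb fell under it, with 55.1% in mNRPCs and 54.4% in retina. Of that level, its 33-base exon was on 39.0% in mNRPCs and 44.5% in retina. Of the 13 coding exons, those of Clta, Src and Pkm are shown, with capitals for the exon. Clta encodes clathrin light chain A, with a pair of inserts used in neurons. Src encodes a tyrosine kinase whose N1 microexon is neuronal and held back by Ptbp1. Pkm encodes pyruvate kinase, with mutually exclusive exons for the M1 and M2 forms, of which Ptbp1 holds back the M1 exon.
Clta 54-base exon, chr4:44030215-44030268, plus strand: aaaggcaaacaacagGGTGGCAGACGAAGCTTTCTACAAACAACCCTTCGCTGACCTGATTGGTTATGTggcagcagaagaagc
Clta 36-base exon, chr4:44031400-44031435, plus strand: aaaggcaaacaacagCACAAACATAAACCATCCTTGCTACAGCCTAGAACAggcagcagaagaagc
Src 18-base exon, chr2:157458843-157458860, plus strand: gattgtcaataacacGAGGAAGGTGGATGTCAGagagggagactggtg
Pkm M1 exon, chr9:59675029-59675195, plus strand: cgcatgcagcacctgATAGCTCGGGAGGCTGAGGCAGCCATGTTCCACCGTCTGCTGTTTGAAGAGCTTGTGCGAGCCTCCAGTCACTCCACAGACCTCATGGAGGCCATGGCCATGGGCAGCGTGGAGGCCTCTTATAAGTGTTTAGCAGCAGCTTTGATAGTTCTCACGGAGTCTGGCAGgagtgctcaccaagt
Pkm M2 exon, chr9:59675568-59675734, plus strand: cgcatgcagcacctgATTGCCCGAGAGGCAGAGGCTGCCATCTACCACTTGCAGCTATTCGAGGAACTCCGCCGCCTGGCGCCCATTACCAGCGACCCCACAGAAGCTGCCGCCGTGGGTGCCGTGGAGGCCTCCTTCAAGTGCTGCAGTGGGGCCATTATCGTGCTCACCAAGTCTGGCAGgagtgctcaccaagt
The Pkm exons are 167 bases each and identical at 103 positions (61.7%).

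Clta had 234 FPKM in mNRPCs against 146 in retina. Rows with the 54-base exon held 0.000390% of Clta in mNRPCs and 77.2% in retina, and rows with the 36-base exon 0.000396% and 68.6%. Of the 2 rows without either, NM_001080384.1 had 219 FPKM in mNRPCs against 9.56 in retina, and NM_001080386.1 held 6.39% of Clta in mNRPCs and 0.233% in retina, there on an estimated 1.77 fragments. NM_001080385.1, with both, had 76.6 FPKM in retina and an estimated 0.00669 fragments in mNRPCs. In Src, the row with the N1 microexon, NM_009271.3, had 4.60 FPKM in mNRPCs against 3.54 in retina, while rows without it had 36.2 against 4.32. Its share of the rows with a known state was 11.3% in mNRPCs and 45.1% in retina, where these rows held 64.6% of Src. The M1 exon of Pkm made up 20.9% in mNRPCs and 30.3% in retina, and the M2 exon 79.1% and 69.7%. The exon shares here and for the other genes are estimates by the authors' program, which divides reads between transcripts. Only reads on or next to a short exon bear on its share directly.

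**Figure D3:**
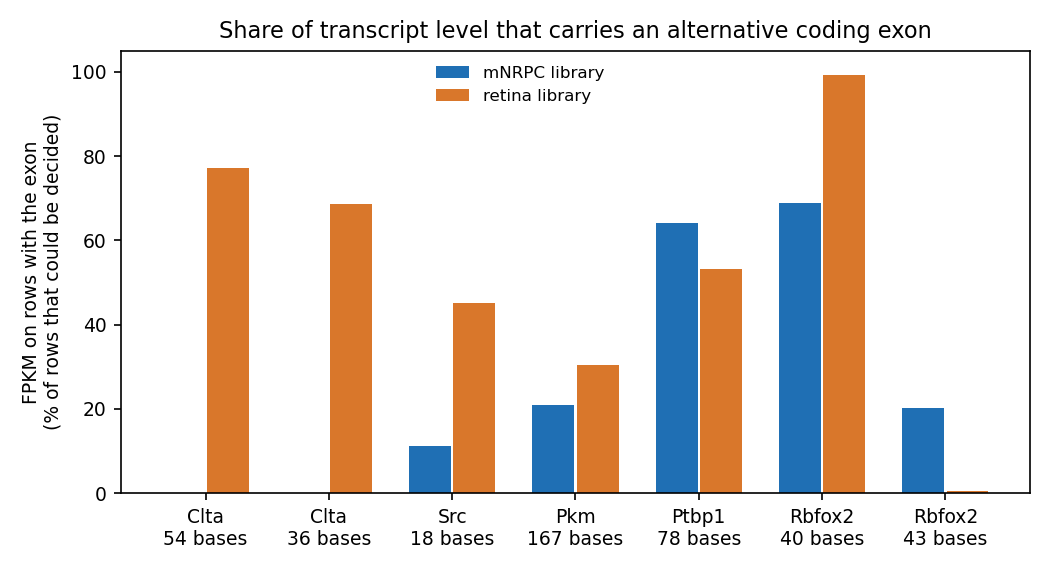
Share of FPKM on transcript rows that carry an alternative coding exon, in percent of the rows whose exons are known, in the mNRPC and retina libraries (bars from 0, 1 library each); Pkm is shown for the M1 exon. The Clta inserts are near 0 in mNRPCs and at 77.2% and 68.6% in retina, and the 43-base exon of Rbfox2 is at 20.2% in mNRPCs and 0.587% in retina.

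Proteins that work with or upstream of the PTB proteins were compared next. Raver1, a corepressor of Ptbp1, had 33.4 FPKM in mNRPCs against 15.4 in retina, a log2 ratio of 1.07, which was under the threshold after rescaling to a common sum (0.58). Its paralog Raver2 had 0.119 FPKM against 5.37, 44.9-fold lower on an estimated 3.13 fragments. Matr3, Hnrnpl and Hnrnpll, further splicing repressors, had log2 ratios of −0.67, −0.25 and 0.39 as deposited, and −1.18, −0.76 and −0.11 with the libraries rescaled to a common sum. Matr3 was thus lower by the 2-fold threshold after rescaling, and the sign of Hnrnpll turned. Rest, the repressor of neuronal genes outside neurons, had 7.81 FPKM in mNRPCs against 4.77 in retina, a log2 ratio of 0.61. This is within 2-fold, and it was 0.17 after rescaling to a common sum and 0.05 when rod and cone genes were left out. Of the 11 genes of the REST list that were compared, 5 were higher and 1 lower, with a median of 0.92, beside 24.5% and 30.0% of all genes compared. Rescaling to a common sum left 3 higher, and 2 without rod and cone genes (median 0.42). Among the 5 as deposited, the phosphatase gene Ctdsp2 had a log2 ratio of 2.01, its paralog Ctdsp1 1.25, the corepressor gene Rcor2 1.69, and the histone deacetylase genes Hdac1 and Hdac2 1.51 and 1.18. Ctdsp1 and Hdac2 were under the threshold after that rescaling, at 0.77 and 0.68. The lower gene was Mir124a-1hg, a host transcript of the neuronal microRNA miR-124, which represses Ptbp1. It had 0.178 FPKM in mNRPCs, or 4.74 fragments by estimate, against 468 FPKM in retina. The level of the mature microRNA was not measured.

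Promoter windows (RefSeq, GRCm38.p6, 250 bases before to 50 after the start) were found for 8 of the 10 genes, 14 windows in all. The core of the REST binding motif, read on either strand as CAGCACC, any 2 bases and GGACAG, was in 0 of these and in 0.0365% of 32851 windows of all genes. Its left part, CAGCACC, was likewise in 0 of the 14 windows, against 7.14% of all windows. Its right part, GGACAG, was in 4 of the 14, all of Msi2 or Ptbp2, against 22.2% of all windows. With only 14 windows, a motif as rare as the core would be absent from almost any set of genes. The counts of its parts are likewise too small to read as a result about these genes. Sites elsewhere were not searched.

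Other RNA-binding genes gave the setting. Of 32 further regulators of splicing, stability or translation, 30 were compared: 5 were higher, 13 lower and 12 within 2-fold, with a median log2 ratio of −0.69. Among all genes compared, 24.5% were higher and 30.0% lower. With the libraries rescaled to a common sum, 4 were higher and 18 lower, with a median of −1.19, and without rod and cone genes 3 and 19, with a median of −1.31. The neuronal Celf genes Celf3 and Celf6 were listed at 0 in mNRPCs, against 33.7 and 4.76 FPKM in retina. Celf4 had 3.84 FPKM in mNRPCs against 61.0 in retina. Cpeb3, which controls translation at synapses, had 0.407 FPKM against 16.1. Mbnl3, a muscleblind splicing factor gene, had 14.6 FPKM in mNRPCs against 0.0475 in retina, at least 55.4-fold higher. Rbm38, a regulator of mRNA stability, had 17.5 FPKM against 2.29.

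General splicing factors showed smaller differences. Of 31 SR and hnRNP genes 30 were compared, and 3 were higher, 3 lower and 24 within 2-fold, with a median of −0.17, beside 24.5% higher and 30.0% lower of all genes. With the highest row of each gene only, 8 were higher. The extremes were Hnrnph3 at −1.61 and Hnrnpul1 at 1.48, with Hnrnpab at 1.41, Srsf4 at −1.15, Hnrnpa1 at 1.11 and Srsf5 at −1.05. Hnrnpa1 is known for many processed pseudogenes, and whether reads were shared with them was not tested. After rescaling to a common sum 0 were higher and 8 lower. That rescaling moved the median of all genes to −0.63 and the count of all genes from 3371 higher and 4130 lower to 2552 and 5733. As deposited, the median of the 10 genes minus that of all genes was −3.18.

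**Figure D4:**
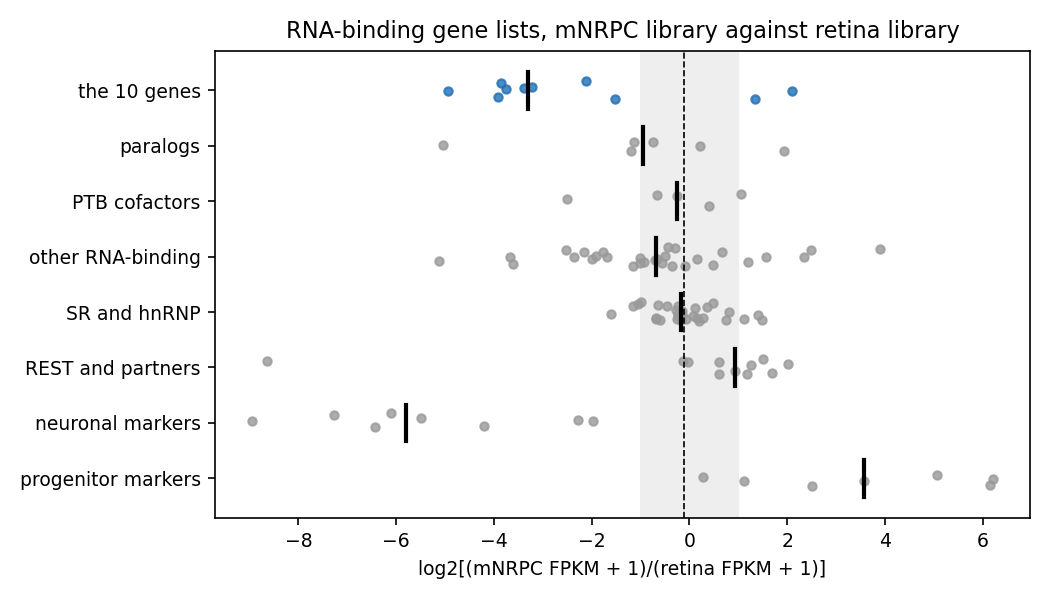
Log2 ratio of (mNRPC FPKM + 1) over (retina FPKM + 1) for each gene compared (points, jittered vertically) in 8 lists, with list medians as bars, the median of all genes as a dashed line and the range within 2-fold shaded. The 10 genes have a median of −3.30, between the SR and hnRNP genes (−0.17) and the neuronal markers (−5.80).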

How the data were processed

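RNA sequencing values of 1 mNRPC and 1 retina library were used, grouped by the labels. The deposited values were FPKM per RefSeq transcript. The study's methods name Bowtie 2 and eXpress, while the submitters' processing notes name TopHat2 2.0.10 and build GRCm38.p3, and the series text and the methods name different sequencers. Depth was not given as counts and was estimated from the lowest values of 6230 transcripts of at least 1500 bp that are alone in their gene.

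Of 106754 rows, 74280 (69.6%) were matched without version to RefSeq (GRCm38.p6) or GENCODE M21, and rows were summed per gene. They held 93.2% of the mNRPC and 89.9% of the retina FPKM. Values under 1e-06 were read as 0. Exons were read from GENCODE M21 (GRCm38) for rows paired there with a transcript, 30 of the 101 rows of the 10 genes. Genes named were the 10 genes, all paralogs, PTB cofactors and Rest, and up to 6 genes per further list with the largest log2 ratios. Transcript rows were named from those of at least 10% of a gene, and not all such rows are named. Rcor1, Clta, Pkm, Cltb, Numb and Rom1, and the Clta row NM_001080386.1, were named outside these rules, after their values were seen. The members and lists were chosen with earlier results of these data known, and the 60% rule for exons after their values were seen. Scaling by a trimmed mean of log ratios, the direction of called changes and the depth estimate were tested on simulated data. The summing of rows was not. Programs were Python 3.11.15, pandas 2.3.3, NumPy 2.4.6 and SciPy 1.17.1.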

Additional observations from a re-analysis of the deposited data

How the results depend on the processing

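Of 108 log2 ratios of the 10 genes under 11 alternatives, 0 changed sign and 26 moved beyond counting error (an SE of 1 on the log2 scale was taken for genes listed at 0). The number of the 10 genes that were lower was 8, or 7 with curated rows only, with versioned accessions and at a 4-fold threshold. The higher count fell from 2 to 1 after rescaling to a common sum, after that without rod and cone genes, and at 4-fold. Among all genes compared, the higher count fell from 3371 to 2552 after rescaling to a common sum. It was 2361 with rod and cone genes left out of that sum. Shares of all genes are not given here for curated rows, versioned accessions or 4-fold, so those counts have no background beside them. The median log2 ratio moved from −3.30 to −6.47 with a pseudocount of 0.1, to −5.74 with low genes at 3 fragments and no pseudocount, to −3.77 after rescaling to a common sum and −3.90 without rod and cone genes, to −2.50 with the highest row of a gene only, and to −1.79 with curated rows only and with versioned accessions. The last pair leave predicted rows out, and Rbfox1 then fell under 1 FPKM. Curated rows moved Ptbp2 from −1.51 to −4.56. The median of SR and hnRNP genes turned from −0.17 to 0.0185 with the highest row only, and the cause was not tested. The number of lower genes among all rose from 4130 to 6236 with rod and cone genes left out of the sum. Fragment numbers limit Msi1, Elavl3 and the genes listed at 0 in mNRPCs. No paired analysis was possible because mNRPCs and retina are represented by 1 library apiece.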

Other observations

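The other genes with known neuronal splicing switches were compared by their sums. Dlg4, the gene of the postsynaptic scaffold PSD-95, whose mRNA decays when Ptbp1 and Ptbp2 cause an exon to be skipped, had 9.67 FPKM in mNRPCs against 93.4 in retina. Gabbr1, a GABA-B receptor gene, had 3.18 FPKM against 31.9, and Mef2d, a transcription factor gene, 13.6 against 68.6. Agrn, the gene of agrin, had 50.8 FPKM in mNRPCs against 8.86 in retina, and its curated row NM_021604.3 held 67.2% of it in mNRPCs and 5.03% in retina. Cltb, the other clathrin light chain gene, had 1 row and had 26.2 FPKM against 25.7. Nasp, a histone chaperone gene, had 42.0 FPKM against 14.2, and rows with its 975-base exon held 11.0% of it in mNRPCs and 30.2% in retina, while an 81-base exon was at 99.4% and 98.4%. Numb, an inhibitor of Notch, had 6.98 FPKM against 12.4, with 55.1% of it in mNRPCs and 54.4% in retina on rows whose exons are known. Of that level, its 33-base exon was on 39.0% and 44.5%, and its 147-base exon on 22.8% and 17.3%.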
